A study of Drosophila melanogaster with 36 samples.

Results

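This account covers 9 genes of stress signalling, wound response and programmed cell death in Drosophila melanogaster: Jra, kay, puc, Ets21C, Ilp8, Gadd45, egr, rpr and hid. They were taken by symbol, matched to FlyBase IDs, out of the 17807 gene IDs counted, and all 9 were among the 11198 genes with enough reads to test. RNA was sequenced from cells sorted out of the wing and haltere imaginal discs, the larval sacs that form the wing and the balancing haltere. The donors were wandering larvae of the last instar, kept at 25 °C. The groups were haltere nub and wing nub cells (genotype yw;nub.gal4;uas-kash.GFP) and haltere tsh and wing tsh cells (yw;tsh.gal4;uas-kash.GFP), with 2 libraries each. All groups carry yw and a GFP reporter transgene, and none was treated. The nub driver marks the distal appendage primordium and the tsh driver the proximal disc, so each domain came from its own fly line, and effects of line and of domain cannot be told apart.

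The c-Jun N-terminal kinase (JNK) pathway is a chain of kinases switched on by injury, stress and the TNF-like ligand Eiger (egr). Its last kinase, Basket (bsk), acts on the Jun and Fos proteins encoded by Jra and kay, which together form the transcription factor AP-1. AP-1 in turn drives puc, a phosphatase that shuts the kinase off again, so puc is widely read as a reporter of pathway activity. In undisturbed larval discs the pathway is best known for its role in the proximal wing disc, where it prepares closure of the thorax at metamorphosis. The genes rpr and hid encode proteins that bind the inhibitor Diap1 and so release caspases.

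The haltere nub libraries held 96525031 and 92342738 counts, and the other 6 held 15110163 to 17705451. A separate sequencing batch can therefore not be told apart from haltere nub cells. Levels are given as CPM, read counts scaled to library size by TMM, which compare a gene between libraries but not 1 gene with another, since they are not divided by transcript length. Ubx, the Hox gene of the haltere, stood at 2738 and 2753 CPM in haltere nub cells and at 2.05 and 6.94 CPM in wing nub cells. In tsh cells Ubx was at 769 and 818 CPM in the haltere and at 37.0 and 37.1 CPM in the wing disc. The driver genes nub and tsh followed the labels in every library, with nub at 1036 to 1651 CPM in the nub libraries and at 10.3 to 38.7 CPM in the tsh libraries. Wing tsh replicate 1 stood apart, with 2839 tested genes between 1 and 5 CPM against 1805 to 2314 in the other libraries. In sorted cells pooled for a library, fewer cells that express a gene and less RNA per cell cannot be told apart.

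**Figure D1:**
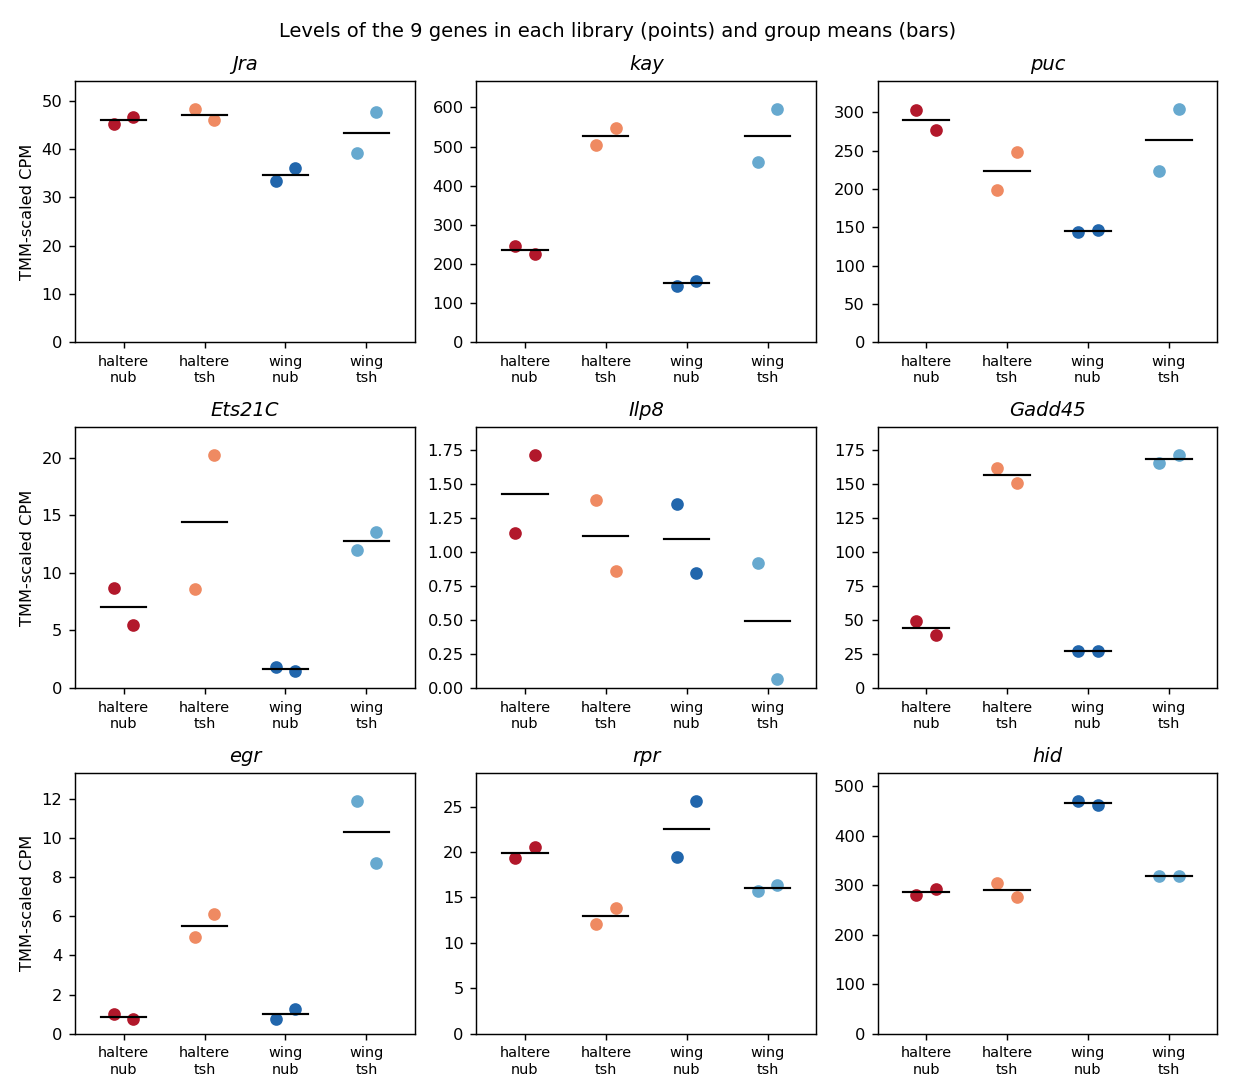
Level of each of the 9 genes in TMM-scaled CPM (vertical axes from 0, a scale per gene) in the haltere nub, haltere tsh, wing nub and wing tsh libraries. Points are libraries (2 per group) and bars are group means. The 5 genes Jra, kay, puc, Ets21C and Gadd45 have their lowest group mean in wing nub cells, where hid is highest at 471 and 462 CPM.

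The haltere and wing were first set side by side within distal cells. Of the 9 genes 5 were higher in haltere nub than in wing nub cells (Jra, kay, puc, Ets21C and Gadd45), 1 was lower (the cell death gene hid) and 3 did not pass the test. Over all genes tested 23.3% were called in this comparison, 9.72% higher and 13.6% lower, but with a filter of 1 CPM the higher calls outnumbered the lower, at 1595 against 1247. The median log2 fold change of the 9 genes was 0.41, against -0.01 over all genes. The 9 genes were chosen with earlier results of these data known. Their medians and shares of calls, here and below, are therefore descriptions only. Calls and adjusted p-values come from the quasi-likelihood test of edgeR, adjusted by Benjamini-Hochberg over all genes, at 0.05.

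The feedback phosphatase puc (3R, 8105332 to 8122294) stood at 303 and 277 CPM in haltere nub cells and at 143 and 146 CPM in wing nub cells. Both haltere libraries lay above both wing libraries, with a log2 fold change of 1.00 ± 0.15 (SE, adjusted p = 0.00125). Ets21C (2L, 544925 to 552923), an ETS transcription factor induced by JNK on injury, had 8.68 and 5.48 CPM in haltere nub cells and 1.82 and 1.47 CPM in wing nub cells. That was the widest gap among the 9 genes, at 2.11 ± 0.46 on the log2 scale (adjusted p = 0.0132), and it rested on 31 and 26 reads in wing nub cells. It was no longer called without haltere nub replicate 1 (1.74, adjusted p = 0.0511), wing nub replicate 1 (2.27, 0.0996) or wing nub replicate 2 (1.96, 0.102), and also with no filter on low genes (adjusted p = 0.0747).

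The AP-1 subunits moved the same way by smaller steps. The Fos gene kay (3R, 29765995 to 29794113) stood at 246 and 225 CPM in haltere nub cells, against 144 and 157 CPM in wing nub cells (log2 fold change 0.65 ± 0.12, adjusted p = 0.00286). Its libraries did not overlap between the discs. The Jun gene Jra (2R, 10096480 to 10098556) had 45.2 and 46.7 CPM in haltere nub cells and 33.3 and 36.0 CPM in wing nub cells (0.41 ± 0.11, adjusted p = 0.0194). These groups did not overlap either, but the call was lost without haltere nub replicate 1 (0.43, adjusted p = 0.0792), haltere nub replicate 2 (0.38, 0.121) or wing nub replicate 1 (0.35, 0.138). The stress gene Gadd45 (2R, 7249161 to 7250655), whose mammalian relatives activate kinases upstream of JNK, reached 49.0 and 38.7 CPM in haltere nub cells, against 27.1 and 27.4 CPM in wing nub cells. The groups were apart and the log2 fold change was 0.69 ± 0.11 (adjusted p = 0.00147).

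The cell death gene hid (3L, 18167745 to 18185641) went the other way. It had 281 and 293 CPM in haltere nub cells and 471 and 462 CPM in wing nub cells, a log2 fold change of -0.70 ± 0.08 (adjusted p = 0.000135). The wing nub libraries were the highest of all 8 for hid. Its neighbour rpr (3L, 18397535 to 18398435), which acts on the same inhibitor, had 19.4 and 20.5 CPM in haltere nub and 19.4 and 25.7 CPM in wing nub cells, and the groups overlapped (-0.18 ± 0.14, adjusted p = 0.4). The ligand gene egr (2R, 10078366 to 10084210) was lower in both nub groups than in either tsh group, with 1.01 and 0.738 CPM in haltere nub and 0.763 and 1.24 CPM in wing nub cells (-0.20 ± 0.36, adjusted p = 0.737).

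Ilp8 (3L, 17029812 to 17032080) encodes a relaxin-like hormone that damaged discs release to delay metamorphosis. It was barely detected anywhere, with 112 and 158 reads in the haltere nub libraries, 21 and 15 in haltere tsh, 23 and 15 in wing nub and 15 and 1 in wing tsh. As levels these were 1.14 and 1.71 CPM in haltere nub, 1.38 and 0.856 in haltere tsh, 1.35 and 0.846 in wing nub, and 0.921 and 0.0624 CPM in wing tsh cells. All 4 groups overlapped with their neighbours in level. The single read of wing tsh replicate 2 carries an exact 95% Poisson interval of 0.00158 to 0.348 CPM, which covers counting error only. No fold change of Ilp8 passed the test in any comparison, and each had a standard error of 0.89 or more on the log2 scale. A difference in Ilp8 was thus not resolved by these libraries. The intervals of the 2 haltere nub libraries, 0.94 to 1.37 and 1.46 to 2.00 CPM, did not overlap, so these libraries differed beyond counting error. Fitted on the 4 nub libraries alone, the haltere nub against wing nub difference was 0.36 ± 0.44 (adjusted p = 0.576 by edgeR).

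**Figure D2:**
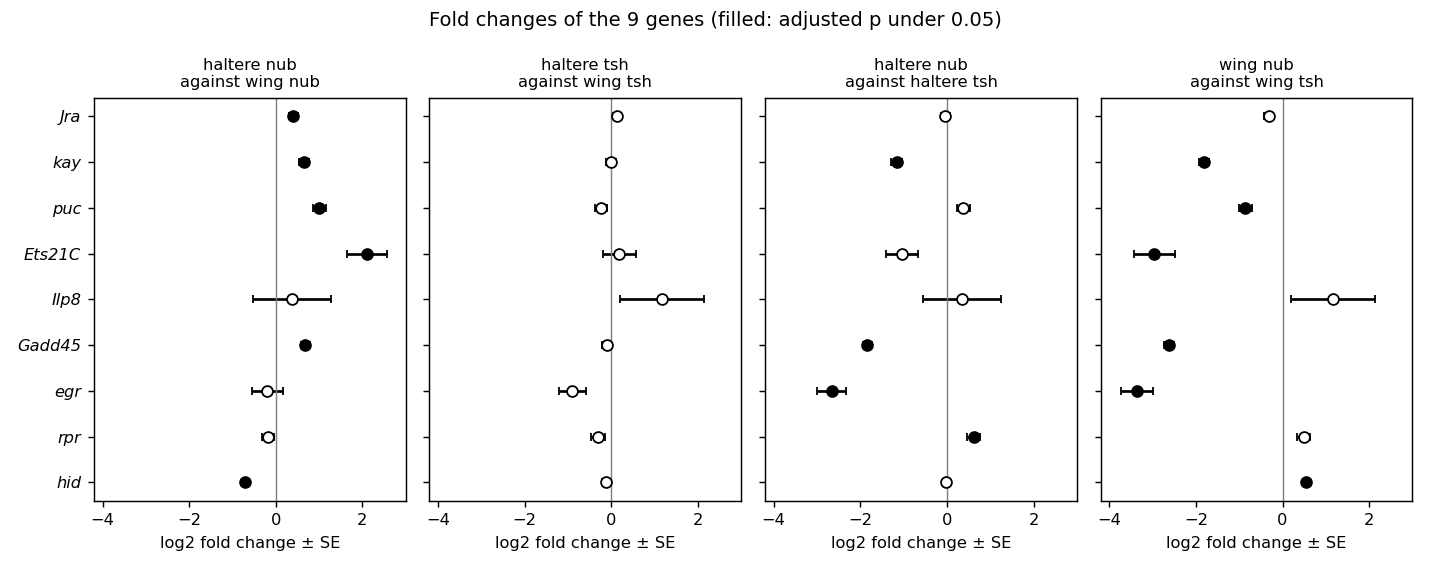
Log2 fold change (points) and standard error (bars) of the 9 genes in 4 comparisons, first group over second, from the fit over all 8 libraries. Filled points passed an adjusted p of 0.05. In haltere nub against wing nub cells 5 filled points lie right of 0 and that of hid lies left, while in haltere tsh against wing tsh cells no point is filled.

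Heat shock genes moved with the difference between discs in distal cells. Of 13 heat shock genes tested 9 were higher in haltere nub than in wing nub cells and none lower, with a median of 1.23. Over all genes 9.72% were called higher and 13.6% lower there, with a median of -0.01. Hsp68 stood at 67.4 and 67.5 CPM in haltere nub cells and at 4.29 and 5.53 CPM in wing nub cells (3.78 ± 0.32, adjusted p = 0.000169). The cochaperone gene DnaJ-1 had 284 and 267 CPM in haltere nub and 110 and 126 CPM in wing nub cells (1.23 ± 0.18, adjusted p = 0.00219). Summed over the whole list the levels overlapped, at 2996 and 3242 CPM in haltere nub and 3277 and 2982 CPM in wing nub cells, and Hsp22 had 0 counts in every library. Hsp70 copies are near-identical and their counts are uncertain. The part of cell handling or heat stress in the differences of Jra, kay, puc, Ets21C and Gadd45 was not tested.

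After a least-squares correction for the length of the gene's span, an alternative chosen after seeing the data, 1 of the 6 calls remained in distal cells, that of hid (adjusted p = 0.0381). The log2 fold changes were then 0.30 for Jra, 0.38 for kay, 0.77 for puc, 1.94 for Ets21C and 0.58 for Gadd45, while the median standard error over all genes was 0.275 against 0.162. A robust version of the same correction, chosen after that result, left the median standard error at 0.163 and all 6 calls in place. Thinning the deep haltere nub libraries to 17128448 counts also left 6 genes called.

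In proximal cells the same comparison of discs gave no call. None of the 9 genes passed the adjusted threshold in haltere tsh against wing tsh cells by edgeR, nor by DESeq2, and 1 of them (egr) had an unadjusted p under 0.05. Over all genes 3.26% were called, 1.04% higher and 2.22% lower. The proximal levels of kay were 505 and 547 CPM in the haltere and 460 and 596 CPM in the wing disc, so that the haltere libraries lay within the range of the wing libraries (-0.01 ± 0.12, adjusted p = 0.986). The groups of puc overlapped too. Its levels were 199 and 248 CPM in haltere tsh and 223 and 304 CPM in wing tsh cells (-0.24 ± 0.15, adjusted p = 0.425). Without wing tsh replicate 1 puc was called lower in the haltere (-0.44, adjusted p = 0.0492).

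The ligand gene egr had the lowest unadjusted p of the 9 genes in proximal cells. It stood at 4.94 and 6.11 CPM in haltere tsh and 11.9 and 8.74 CPM in wing tsh cells. Both haltere libraries lay below both wing libraries, but the difference of -0.90 ± 0.31 missed the threshold (adjusted p = 0.168). Markers of myoblasts, the muscle precursors attached to the proximal wing disc, moved with it. Of 7 such markers 5 were lower in haltere tsh cells and none higher, where 2.22% and 1.04% of all genes were. Their summed levels were 143 and 139 CPM in haltere tsh and 238 and 208 CPM in wing tsh cells. None of the 7 was at 0 in all libraries, and twi averaged 3.52 CPM in haltere tsh and 10.3 CPM in wing tsh cells. Fat body markers summed to 4.35 and 5.25 CPM in haltere tsh cells and to 55.7 and 19.9 CPM in wing tsh cells. The part of myoblasts or fat body in the level of egr was not tested.

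Distal cells were next set against proximal cells in the haltere disc. Here kay, Gadd45 and egr were lower in nub cells and rpr was higher, 4 genes of 9 in all, and 5 did not pass the test. Over all genes 24.9% were called in this comparison, 9.96% higher and 15% lower. Other lists moved too, with 4 of 7 myoblast markers lower and 1 higher and 8 of 13 heat shock genes higher and 3 lower. The median log2 fold change of the 7 myoblast markers was -1.95. Their summed levels went the other way, at 232 and 228 CPM in haltere nub and 143 and 139 CPM in haltere tsh cells. A sum gives most weight to the most abundant markers. None of the 7 was at 0 in all libraries, and their part in these differences was not tested. Gadd45 had 49.0 and 38.7 CPM in haltere nub and 162 and 151 CPM in haltere tsh cells (-1.84 ± 0.11, adjusted p = 2.52e-07). The groups did not overlap. For egr the values were 1.01 and 0.738 CPM in haltere nub and 4.94 and 6.11 CPM in haltere tsh cells (-2.66 ± 0.33, adjusted p = 0.00013). For kay they were 246 and 225 CPM in haltere nub and 505 and 547 CPM in haltere tsh cells (-1.16 ± 0.12, adjusted p = 2.73e-05).

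Among the death genes of the haltere disc rpr was higher in nub cells, at 19.4 and 20.5 CPM against 12.05 and 13.9 CPM in haltere tsh cells (0.62 ± 0.15, adjusted p = 0.00971). The groups did not overlap. That call was lost without haltere tsh replicate 1 (0.52, adjusted p = 0.0978) or haltere nub replicate 2 (0.58, 0.0726), and with the least-squares span correction (0.49, 0.12). For hid the haltere groups overlapped, at 281 and 293 CPM in nub and 305 and 276 CPM in tsh cells (-0.02 ± 0.08, adjusted p = 0.898). Ets21C had 8.68 and 5.48 CPM in haltere nub cells, against 8.56 and 20.3 CPM in haltere tsh cells, whose libraries were uneven. The log2 difference of -1.03 ± 0.37 was not called (adjusted p = 0.0837), and it was called without haltere tsh replicate 1 (-1.52, adjusted p = 0.00388). For puc the haltere groups lay apart, with 303 and 277 CPM in nub and 199 and 248 CPM in tsh cells, and the difference of 0.38 ± 0.15 missed the threshold (adjusted p = 0.0929). It passed by DESeq2 (0.40, adjusted p = 0.0236), with library totals (0.39, 0.0397) and with a filter of 1 CPM (0.45, 0.0421). A fit of only the 4 libraries compared also called it (0.36, 0.0217). So did fits without either wing tsh library (0.38 in both), which are not part of the comparison. With the least-squares span correction it was 0.17 (0.815).

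The same comparison of domains was made in the wing disc. In wing nub cells 5 of the 9 genes were lower than in wing tsh cells (kay, puc, Ets21C, Gadd45 and egr), hid was higher, and 3 did not pass. Over all genes 13.8% were called here, 5.96% higher and 7.88% lower, and the median log2 fold change was -0.87 for the 9 genes and -0.01 over all genes. Of the myoblast markers 5 of 7 were lower and 1 higher, of the heat shock genes 6 of 13 were lower and 2 higher, and of 2 fat body markers tested 1 was lower. Summed myoblast markers stood at 170 and 172 CPM in wing nub and 238 and 208 CPM in wing tsh cells, and fat body markers at 3.52 and 3.10 CPM in wing nub and 55.7 and 19.9 CPM in wing tsh cells. The part of these cells in the differences was not tested. The ligand gene egr had 0.763 and 1.24 CPM in wing nub and 11.9 and 8.74 CPM in wing tsh cells (-3.36 ± 0.36, adjusted p = 5.34e-05). Its wing nub values rested on 13 and 22 reads. Gadd45 stood at 27.1 and 27.4 CPM in wing nub and at 166 and 172 CPM in wing tsh cells (-2.63 ± 0.12, adjusted p = 2.55e-08). Both genes were therefore several times lower in distal cells, with no overlap.

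The Fos gene kay followed with 144 and 157 CPM in wing nub and 460 and 596 CPM in wing tsh cells (-1.81 ± 0.12, adjusted p = 9.42e-07). For puc the values were 143 and 146 CPM in wing nub and 223 and 304 CPM in wing tsh cells (-0.87 ± 0.15, adjusted p = 0.00341). Neither gene overlapped between the domains. For Ets21C, wing nub cells had 1.82 and 1.47 CPM and wing tsh cells 12.03 and 13.6 CPM (-2.96 ± 0.47, adjusted p = 0.00379). Its groups were far apart, yet the call was lost without wing nub replicate 1 (-3.12, adjusted p = 0.0522) or replicate 2 (-2.82, adjusted p = 0.0577). With the span trend removed by least squares puc lost its call as well (-0.53, adjusted p = 0.265).

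In the same disc hid was higher in nub cells, with 471 and 462 CPM in wing nub and 318 and 319 CPM in wing tsh cells (0.55 ± 0.08, adjusted p = 0.00074). For rpr the step was alike in size but missed the threshold, at 19.4 and 25.7 CPM in wing nub and 15.7 and 16.4 CPM in wing tsh cells (0.49 ± 0.15, adjusted p = 0.0518). The step was called with no filter on low genes (0.53, adjusted p = 0.0163) and with a term for replicate number (0.48, 0.039). The least-squares span correction (0.75, 0.0122) and the robust one (0.53, 0.0429) called it too. It was also called without wing nub replicate 1 (0.68). Jra was at 33.3 and 36.0 CPM in wing nub and 39.2 and 47.6 CPM in wing tsh cells (-0.32 ± 0.11, adjusted p = 0.0812). Jra was called lower without wing tsh replicate 1, the library that stood apart (-0.46, adjusted p = 0.0146), and also with library totals (-0.32, 0.046) or a filter of 1 CPM (-0.34, 0.0488). Without that library Ilp8 was also called, at a log2 fold change of 4.13 (adjusted p = 0.0244) that rests on the 1 read of the library left.

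Whether the disc difference itself depended on the domain was tested with the interaction term, the haltere-minus-wing difference in nub cells less that in tsh cells. It was called for 4 of the 9 genes, positive for kay, puc and Gadd45 and negative for hid. Over all genes it was called for 15.4%, 7.32% positive and 8.1% negative. The largest of the 4 was puc, whose disc difference was 1.00 in nub and -0.24 in tsh cells (interaction 1.24 ± 0.21, adjusted p = 0.00472). For Gadd45 the disc differences were 0.69 in nub and -0.11 in tsh cells (0.80 ± 0.16, adjusted p = 0.00731). For hid they were -0.70 in nub and -0.13 in tsh cells (-0.57 ± 0.12, adjusted p = 0.00901). In the main fit the disc difference of these 3 genes thus depended on the domain, which cannot be told apart from the driver line. Nor can haltere nub cells, which enter the term, be told apart from a sequencing batch.

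The fourth, kay, had disc differences of 0.65 in nub and -0.01 in tsh cells (0.65 ± 0.17, adjusted p = 0.0253). Its call was lost without haltere tsh replicate 1 or 2 (0.59 and 0.71, adjusted p = 0.117 and 0.0541), haltere nub replicate 1 or 2 (0.59 and 0.72, 0.11 and 0.0635) or wing nub replicate 1 (0.59, 0.107). The robust span correction also ended it (0.36, adjusted p = 0.127). The call of hid was lost without haltere tsh replicate 1 (-0.50, adjusted p = 0.0628) or haltere nub replicate 1 (-0.54, 0.0576). With the least-squares span correction none of the 4 was called, with values of 0.0036 for kay, 0.69 for puc, 0.50 for Gadd45 and -1.19 for hid. Ets21C had an interaction of 1.93 ± 0.60 that was not called (adjusted p = 0.0664). It was called by DESeq2 (1.97, adjusted p = 0.00772), by edgeR without robust dispersions (1.93, 0.043) and without haltere tsh replicate 2 (2.69).

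Ordered by group mean, the 9 genes fell into several arrangements. For kay the order was wing tsh, haltere tsh, haltere nub and wing nub, at 528, 526, 235 and 150 CPM, and the first neighbours overlapped. Gadd45 had the same order (169, 157, 43.9 and 27.2 CPM) with no overlap between neighbours. The step between its 2 tsh groups was not called, however (-0.11 ± 0.11, adjusted p = 0.628 by edgeR). Lack of overlap between 2 libraries and 2 others is a description and not a test. Ets21C ran from haltere tsh through wing tsh and haltere nub to wing nub (14.4, 12.8, 7.08 and 1.64 CPM), and the 2 tsh groups overlapped. For puc haltere nub came first (290 CPM), then wing tsh (264), haltere tsh (224) and wing nub (145), with only wing nub clear of its neighbour. Jra had haltere tsh, haltere nub and wing tsh at 47.2, 46.0 and 43.4 CPM, all overlapping, and wing nub below them at 34.7 CPM.

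The death genes and the ligand were ordered otherwise. For hid wing nub stood first at 466 CPM, followed by wing tsh (319), haltere tsh (290) and haltere nub (287), the last pair overlapping. For rpr wing nub (22.5 CPM) overlapped with haltere nub (19.9), and wing tsh (16.1) and haltere tsh (13.0) followed without overlap. For egr wing tsh (10.3 CPM) and haltere tsh (5.52) were clear of each other and of wing nub (1.00) and haltere nub (0.874), which overlapped. The steps between the 2 tsh groups were not called for hid, rpr or egr (adjusted p = 0.418, 0.319 and 0.168 by edgeR).

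**Figure D3:**
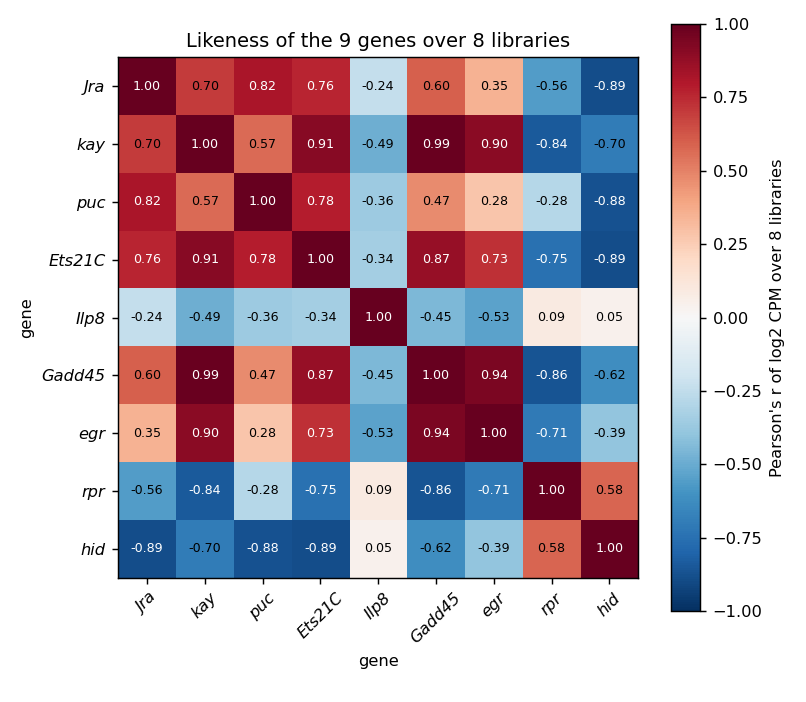
Pearson's r of log2 CPM between the 9 genes over the 8 libraries, printed in each cell (colour from -1 to 1). The libraries are 2 per group, so replicates share their group. The genes kay, Gadd45, egr and Ets21C have r between 0.73 and 0.99 with each other, while hid has -0.89 with Ets21C.

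Over the 8 libraries kay and Gadd45 had a Pearson's r of 0.99, Gadd45 and egr 0.94, and Jra and puc 0.82. The value was -0.89 for hid with Ets21C and with Jra, and -0.88 for hid with puc. These are descriptions over 4 groups of 2, in which replicates share group and driver line. Among 7389 other genes of at least 5 CPM on average, the 3 most like kay were tnc, which encodes an extracellular matrix protein (r = 0.996), CG32512 (0.994) and the dystroglycan gene Dg (0.994). For Gadd45 they were CG9331 (0.996), the aquaporin gene Drip (0.995) and CG31705 (0.994). For egr they were pnr, a GATA factor gene of the notum (0.994), the metalloproteinase inhibitor gene Timp (0.993) and CG43897 (0.992).

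Jra was most like Mkk4, which encodes a kinase of JNK (0.985), RASSF8 (0.972) and the cytokine feedback gene Socs36E (0.968). For puc the nearest were CG3829 (0.981), CG11635 (0.975) and the splicing regulator gene mbl (0.964), and for Ets21C the integrin gene scb (0.982), RhoGAP18B (0.974) and Ypel (0.966). For hid they were Rbm13 (0.996), the serpin gene Spn77Ba (0.99) and the lipoprotein receptor gene LpR1 (0.989). For rpr they were Pka-C3 (0.973), Men-b (0.973) and Srrm234 (0.962), and for Ilp8 they included CG7101 (0.94) and CG11836 (0.933). More than 100 genes reached an r of 0.95 with kay (111) and Gadd45 (138), against 7 with puc, 5 with rpr and none with Ilp8.

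Genes upstream of AP-1 were also counted. Of the 14 JNK cascade genes beside the members, 1 was higher (the adaptor gene Traf4) and 1 lower (the receptor gene wgn) in haltere nub against wing nub cells, and none was called in haltere tsh against wing tsh cells, where 23.3% and 3.26% of all genes were called. In haltere nub against haltere tsh cells 3 were higher and 1 lower, and in wing nub against wing tsh cells 1 was higher and 1 lower, beside 24.9% and 13.8% of all genes. The kinase gene bsk, JNK itself, stood at 44.2 and 38.1 CPM in haltere nub, 52.4 and 47.6 in haltere tsh, 41.7 and 45.9 in wing nub and 42.0 and 46.0 CPM in wing tsh cells. It was called in none of the comparisons. Its kinase gene hep was called only in the haltere disc, at 232 and 229 CPM in nub and 188 and 197 CPM in tsh cells (0.26 ± 0.08, adjusted p = 0.0387).

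The genes for the TNF receptors, through which Eiger signals, behaved differently from each other. The receptor gene wgn stood at 172 and 178 CPM in haltere nub and 37.5 and 42.4 CPM in haltere tsh cells (2.13 ± 0.09, adjusted p = 1.29e-08). In the wing disc it had 209 and 222 CPM in nub and 37.9 CPM in both tsh libraries (2.51 ± 0.09, adjusted p = 5.27e-09). It was thus higher in the domain in which the ligand gene egr was lower, in both discs. The receptor gene grnd was at 173 and 178 CPM in haltere nub, 176 and 167 in haltere tsh, 164 and 174 in wing nub and 156 and 160 CPM in wing tsh cells, and it was not called in any comparison. Traf4 had 20.1 and 20.0 CPM in haltere nub and 10.3 and 8.06 CPM in wing nub cells (1.13 ± 0.21, adjusted p = 0.00284). The kinase gene msn was lower in nub cells of both discs, at 594 and 603 CPM in haltere nub against 720 and 745 CPM in haltere tsh cells (-0.29 ± 0.10, adjusted p = 0.0464) and with -0.42 ± 0.10 in the wing disc (adjusted p = 0.0133).

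**Figure D4:**
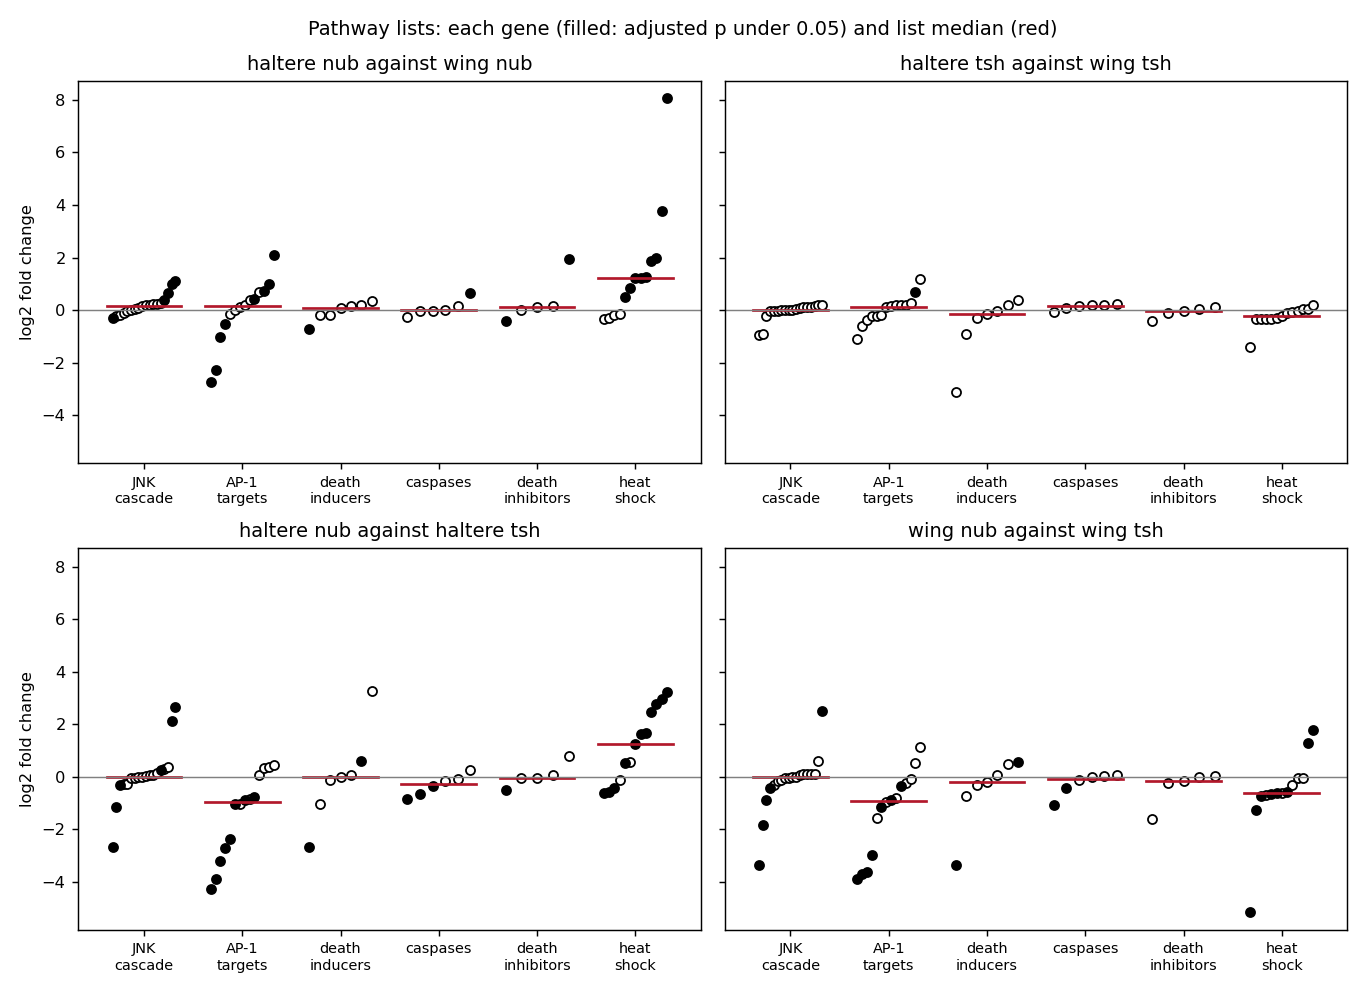
Log2 fold change of each tested gene of 6 lists (points, filled where the adjusted p was under 0.05) with the list median (red bars) in 4 comparisons. The lists include members among the 9 genes. Heat shock genes have a median of 1.23 in haltere nub against wing nub cells, and genes of the JNK cascade a median of 0.18 there.

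Other genes described as AP-1 targets or as induced in regeneration did not all follow puc and Ets21C between the discs. Of 11 such genes beside the members, 2 were higher and 4 lower in haltere nub against wing nub cells. Over all genes 9.72% were called higher and 13.6% lower there. The matrix metalloproteinase gene Mmp1 was lower, at 124 and 112 CPM in haltere nub against 238 CPM in both wing nub libraries (-1.01 ± 0.12, adjusted p = 0.000209). The filamin gene cher was lower too, with 232 and 240 CPM in haltere nub and 329 and 350 CPM in wing nub cells (-0.52 ± 0.08, adjusted p = 0.00111). The cytokine gene upd3 had 0.459 and 0.879 CPM in haltere nub and 3.70 and 2.71 CPM in wing nub cells (-2.26 ± 0.43, adjusted p = 0.0035), and upd2 was also lower (-2.74 ± 0.74, adjusted p = 0.0209). Higher were the NADPH oxidase gene Nox, at 20.1 and 20.5 against 16.7 and 13.5 CPM in wing nub cells (0.43 ± 0.12, adjusted p = 0.0223), and the growth factor gene Pvf1 (0.72 ± 0.20, adjusted p = 0.0255).

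The same genes were compared between domains. Of the 11, 8 were lower in haltere nub against haltere tsh cells and 5 in wing nub against wing tsh cells, and none was higher. Over all genes 15% and 7.88% were called lower in these comparisons, and 9.96% and 5.96% higher. The cytokine gene upd1 stood at 2.72 and 3.27 CPM in haltere nub and 60.6 and 55.2 CPM in haltere tsh cells (-4.27 ± 0.13, adjusted p = 9.68e-10). In the wing disc upd1 had 3.46 and 3.10 CPM in nub and 48.4 and 47.5 CPM in tsh cells (-3.87 ± 0.14, adjusted p = 6.69e-09). The nub and tsh libraries were thus far apart in both discs. For Nox the step was -3.88 ± 0.11 in the haltere and -3.61 ± 0.12 in the wing disc (adjusted p = 9.01e-10 and 2.84e-09).

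The other inducers of cell death that lie beside rpr and hid were nearly silent. The gene grim lies between them, 117 kb from hid and 93.1 kb from rpr, and had at most 0.133 CPM in any library. The fourth gene of the cluster, skl, is 40.1 kb from rpr and had 0.245 and 0.326 CPM in haltere nub, 0.0658 and 0 in haltere tsh, 0.176 and 0.226 in wing nub and 1.53 and 0.0624 CPM in wing tsh cells. Both were too low to test. Of the 4 further genes tested on the same list (p53, Corp, Debcl and Damm), none was called in any comparison. Over all genes 3.26% to 24.9% were called, depending on the comparison.

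Downstream of rpr and hid, the inhibitor gene Diap1 stood at 138 and 144 CPM in haltere nub and 179 and 193 CPM in wing nub cells (-0.40 ± 0.10, adjusted p = 0.0159). Within the haltere disc Diap1 was also lower in nub cells than in tsh cells, which had 203 and 193 CPM (-0.49 ± 0.10, adjusted p = 0.00458). Wing tsh cells had 163 and 201 CPM, so that the haltere nub libraries were the lowest of the 8. The initiator caspase gene Dronc was lower in nub cells of both discs, at 33.3 and 31.9 CPM in haltere nub against 55.5 and 61.2 CPM in haltere tsh cells (-0.84 ± 0.10, adjusted p = 0.000122), and at 39.8 and 37.4 CPM in wing nub against 47.4 and 55.6 CPM in wing tsh cells (-0.42 ± 0.11, adjusted p = 0.0235). The caspase gene Strica was higher in haltere nub than in wing nub cells (0.65 ± 0.16, adjusted p = 0.014) and lower in nub cells of both discs (-0.66 ± 0.15, adjusted p = 0.00898, in the haltere and -1.08 ± 0.17, adjusted p = 0.00102, in the wing). Of the 6 genes tested on the list of caspases and apoptosome genes, 3 were lower in haltere nub against haltere tsh cells. In wing nub against wing tsh cells 2 were lower, and none was higher in either. Over all genes 15% and 7.88% were called lower in these comparisons.

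The members differ in how cleanly their reads can be assigned. On the Release 6 assembly egr and Jra lie 12.3 kb apart on 2R. The spans of Gadd45, rpr and hid overlap no other annotated gene, and Ilp8 overlaps its neighbours by 26 bases or fewer. The span of puc holds lncRNA:CR44331, with 3348 and 3015 reads in haltere nub and 226 and 292 in wing nub cells. These reads are not scaled to depth, which was 96525031 and 92342738 counts in haltere nub and 17291927 and 17705451 in wing nub libraries. Within the span of kay lie fig and lncRNA:CR46110. The span of Ets21C holds nAChRbeta3, which had 0 reads in every library. Since the use of strand in counting is not given in the sources used here, reads of puc and of the RNA within it cannot be told apart.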

How the data were processed

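For 8 RNA-seq libraries of sorted cells the authors deposited a file each with unnormalized counts of reads by gene. Sorted cells went into TRIZOL and a Nugen Ovation kit, per the labels' protocols. Per the submitters' processing notes, the tools were HISAT2, Bowtie2, bcl2fastq and deepTools, with dm6 as build. The counting tool, its annotation and its use of strand: not given in the sources used here. ATAC-seq (17) and ChIP-seq (11) samples of the series were not used here. Symbols were matched for 17710 of 17807 IDs, and coordinates are from RefSeq's Release 6 table.

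The 11198 genes passing filterByExpr were scaled by TMM and fitted in edgeR 4.0.16 (R 4.3.3) by quasi-likelihood over 4 groups of 2 libraries (4 residual degrees of freedom), with robust dispersions and two-sided tests. Standard errors come from the coefficient and the F statistic. The pipeline was tested on simulated data. DESeq2 1.42.0 was an alternative. Replicates differed beyond sampling noise (chi-square per gene 9 to 31.4). Nothing in the labels ties replicates to separate animals, so the p-values measure a spread between libraries that may be technical.

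All 9 genes were named. Of the other lists, a set of core genes (bsk, hep, grnd, wgn, grim, skl, Diap1, Dronc) and the called genes of smallest adjusted p were named, and upd2, Pvf1, DnaJ-1, twi, ple, Ddc and the genes p53, Corp, Debcl and Damm were picked with their values known. Alternatives covered scaling, filters, DESeq2, dispersion, a replicate block, thinning, a gene span correction and leaving out each library. The members and lists were chosen with earlier results of these data known. A further gene ranked by likeness is not reported here.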

Additional observations from a re-analysis of the deposited data

Results flagged for a closer look

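The interaction term of disc and domain was called for 4 of the 9 genes and for 15.4% of all genes. This was in the main quasi-likelihood fit of edgeR with Benjamini-Hochberg adjustment. Domain cannot be told apart from driver line here, nor haltere nub cells from a sequencing batch. The interaction was 1.24 for puc (adjusted p = 0.00472), 0.80 for Gadd45 (0.00731), 0.65 for kay (0.0253) and -0.57 for hid (0.00901) on the log2 scale. The call of kay was lost without haltere tsh replicate 1 or 2 (0.59 and 0.71), haltere nub replicate 1 or 2 (0.59 and 0.72) or wing nub replicate 1 (0.59), and that of hid without haltere tsh replicate 1 (-0.50) or haltere nub replicate 1 (-0.54). The number of members called was 2 to 4 with 1 library left out and 0 with the least-squares span correction. Groups had 2 libraries each, too few for a search for single outlying libraries.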

How the results depend on the processing

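No called value of the 9 genes changed direction in any alternative, and with 1 library left out 143 called values stayed called and 17 lost their call. With 1 library left out, called genes numbered 1176 to 3664 in haltere nub against wing nub, 177 to 1621 in haltere tsh against wing tsh, 1456 to 3737 in haltere nub against haltere tsh, 905 to 2718 in wing nub against wing tsh, and 695 to 3400 for the interaction. Members called were 4 to 6, 0 to 1, 3 to 5, 5 to 8 and 2 to 4 in the same order. Where 1 library is left in a group it is assumed to vary like the others. Against 365 in the main fit, DESeq2 called 720 genes in haltere tsh against wing tsh. With the span trend removed by least squares the counts were 1518 genes and 1 member in haltere nub against wing nub, 1515 genes in haltere nub against haltere tsh, and 0 members for the interaction, and the median of all genes moved by -0.15, 0.226, 0.25, -0.111 and -0.386 in the order nub cells, tsh cells, wing disc, haltere disc and interaction. The cause was not tested.

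Several uncalled values changed sign. For hid in haltere nub against haltere tsh they were 0.0062 with RLE factors, 0.0063 with DESeq2 and 0.055 with a filter of 1 CPM. For Jra there they were 0.036 with that filter and 6.74e-05 with the robust span correction. For kay in haltere tsh against wing tsh they were 0.0094 with library totals, 0.035 with no filter, 0.37 with the least-squares span correction and 0.081 with the robust one. With the least-squares correction puc (0.081), Gadd45 (0.082) and hid (0.25) turned in tsh cells and rpr (-0.26) in the interaction. With 1 library left out the ranges that crossed 0 were -0.18 to 0.19 for kay, -0.58 to 0.66 for Ets21C, -0.015 to 0.27 for Jra and -0.44 to 0.0034 for puc in tsh cells, -0.51 to 0.20 for egr and -0.36 to 0.040 for rpr in nub cells, -0.088 to 0.054 for hid in the haltere disc, and -3.77 to 0.11 for Ilp8 and -0.056 to 0.36 for rpr in the interaction.

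Replicates share only a number. Deviations of same-numbered libraries correlated at -0.324 to 0.107 between groups. With the replicate block 6, 0, 4, 7 and 4 members were called in the order above, the seventh being rpr in the wing disc (0.48, adjusted p = 0.039). Genes called numbered 2476, 315, 2696, 1438 and 1562. Among the calls, the share that was higher moved to 45% with the least-squares correction (31.8% before) in tsh cells and to 53.7% (43.1% before) in the wing disc, with a filter of 1 CPM to 56.1% (41.7% before) in nub cells, 52.2% (40% before) in the haltere disc and 60.9% (47.5% before) in the interaction, and with DESeq2 to 61.4% in the interaction.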

Other observations

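Of 11 genes of the DNA damage response 3 were called in haltere nub against wing nub cells, all higher, where 23.3% of all genes were called and 9.72% were higher. Xrp1, a transcription factor gene of the damage response, stood at 1264 and 1166 CPM in haltere nub and 808 and 873 CPM in wing nub cells (log2 fold change 0.53 ± 0.10, adjusted p = 0.0035 by edgeR). It was also higher in haltere nub than in haltere tsh cells, which had 867 and 932 CPM (0.43 ± 0.10, adjusted p = 0.00921). The kinase gene tefu had 176 and 183 CPM in haltere nub and 136 and 143 CPM in wing nub cells (0.36 ± 0.08, adjusted p = 0.00613). The other 8 genes of that list beside Gadd45 were not called in this comparison.

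Among genes of the epidermal wound response, peb, a zinc finger gene, stood at 19.0 and 19.5 CPM in haltere nub, 5.20 and 5.37 in haltere tsh, 6.81 and 7.16 in wing nub and 8.84 and 4.81 CPM in wing tsh cells. It was higher in haltere nub than in wing nub cells (1.46 ± 0.22, adjusted p = 0.00091). The cuticle repair gene ple was uneven between the haltere tsh libraries, with 21.9 and 1.199 CPM, and so was Ddc, with 19.4 and 2.51 CPM. Neither was called in any comparison. The chitin synthase gene kkv was higher in wing nub than in wing tsh cells (0.28 ± 0.08, adjusted p = 0.0453).

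Of the activity-regulated early genes, sr stood at 2.15 and 1.94 CPM in haltere nub, 44.8 and 45.7 in haltere tsh, 2.52 and 3.95 in wing nub and 94.2 and 98.8 CPM in wing tsh cells. That list held 3 genes, of which 2 were tested. In nub against tsh cells 1 was called lower and 1 was not called in each disc. Over all genes 15% (haltere disc) and 7.88% (wing disc) were called lower there. Markers of hemocytes summed to between 49.9 and 78.8 CPM in the 8 libraries, and none of the 8 was at 0 in all libraries. Of 6 tested, none was called between the discs in either domain, where 23.3% (nub cells) and 3.26% (tsh cells) of all genes were called.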
